A study of Homo sapiens with 13 samples.

Results

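Nonsense-mediated decay is a cytoplasmic surveillance pathway that removes mRNAs on which a ribosome stops too early. The helicase UPF1 is recruited at such a stop, is bridged by UPF2 and UPF3 proteins to exon junction complexes left downstream by splicing, and is phosphorylated by the kinase SMG1. Phosphorylated UPF1 then binds SMG5, SMG6 and adaptors such as PNRC2, through which the mRNA is cut, decapped and degraded. The RBM8A gene encodes Y14, which sits at the core of that complex.

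The genes described here are UPF1, UPF2, UPF3A, UPF3B, SMG1, SMG5, SMG6, DHX34 and PNRC2. They were chosen by name, with earlier results of these data known. All 9 were listed in both deposited comparison tables, among 23886 gene symbols per table. DLD-1, a cell line established from a human colorectal adenocarcinoma, was transfected with small interfering RNA (siRNA) at 50 nM, and RNA was taken 72 h later. The siSOX9 table sets 4 samples with an siRNA against SOX9, a transcription factor of the intestinal crypt, against 3 samples with a control siRNA (siCtrl), from experiments 1 and 2. The siY14 table sets 4 samples with siRNAs against Y14 against 2 siCtrl samples, all from experiment 3. The siY14 samples are 2 of siRNA 9 and 2 of siRNA 10, so that table joins both siRNAs in 1 arm. No genotype was altered, and each group is a transient knockdown in 1 cell line. Separate cultures are not stated in the labels. The p-values therefore set differences between arms only against the spread of these samples, and that spread may be technical.

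The deposited values are mean normalised read counts per arm, that is reads divided by a size factor for each library. Whole reads of the separate libraries were recovered from the printed digits of these means for all 9 genes in both tables. Recovered libraries carry no sample name and are lettered by depth within an arm, a being the deepest. Libraries of the siSOX9 table had estimated depths of 24.9 to 183 M reads, and those of the siY14 table had 47.1 to 72.5 M, and the 9 genes had between 892 and 50493 reads in a library. In the siSOX9 table, library a of each arm was over 4 times deeper than the next and stood apart from the others of its arm. Experiment 2 also has 1 sample of each arm, but whether the deepest libraries are those samples cannot be read from unnamed libraries. In the siY14 table, siCtrl a and b, siY14 a and c, and siY14 b and d differed by no more than sampling noise among genes with means of 50 to 300, with a chi-square per gene of 1.01, 1.01 and 1.04. Other siY14 pairs had 7.38 to 9.90. Among genes with the highest means the near-identical libraries had 1.60 to 1.63, and the other siY14 pairs 103 to 144. Near-identical libraries were therefore counted as 1 sample, which leaves n = 1 for siCtrl and n = 2 for siY14. Whether a pair is 1 of the siRNAs cannot be read from unnamed libraries. SOX9 had a mean of 24468 in siCtrl and 9067 in siSOX9, whereas RBM8A was listed at 0 in both tables, so the Y14 knockdown could not be checked. All 7 colon epithelial markers had means over 100 in both tables, and 0 of 8 immune, fibroblast and endothelial markers did.

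Of these genes, DHX34, UPF1 and PNRC2 carried the largest differences in the siY14 table, so the 150 bases before their RefSeq start are shown (GRCh38.p14, 5′ to 3′). They lie at chr19:47349165-47349314, chr19:18831809-18831958 and chr1:23959678-23959827, all on the plus strand. GENCODE starts the PNRC2 gene upstream of its stretch, which therefore lies within that gene model. The GENCODE starts of DHX34 (47349281) and UPF1 (18831938) lie inside their stretches, toward the 3′ end. Capitals mark CCAAT on either strand, a box found in many promoters, which appears as ATTGG where it lies on the other strand.
DHX34: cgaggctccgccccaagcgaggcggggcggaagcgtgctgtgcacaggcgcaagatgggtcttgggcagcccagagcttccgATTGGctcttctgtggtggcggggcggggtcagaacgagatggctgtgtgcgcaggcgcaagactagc
UPF1: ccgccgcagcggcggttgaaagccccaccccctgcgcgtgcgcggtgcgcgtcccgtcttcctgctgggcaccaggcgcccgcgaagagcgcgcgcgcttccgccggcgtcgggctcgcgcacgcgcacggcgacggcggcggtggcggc
PNRC2: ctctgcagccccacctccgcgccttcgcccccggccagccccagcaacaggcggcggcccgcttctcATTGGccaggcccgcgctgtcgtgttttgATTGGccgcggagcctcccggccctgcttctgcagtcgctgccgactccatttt
CCAAT occurred 1 time in the DHX34 stretch, 2 times in the PNRC2 stretch and 0 times in the UPF1 stretch. It was present in 23.5% of 35116 promoter stretches of that length. CCGGAAG, an ETS-type motif found in 6.85% of them, and TATAAA, found in 6.71%, had 0 matches in these stretches on either strand. The UPF1 stretch held 32 CG dinucleotides, the PNRC2 stretch 15 and the DHX34 stretch 13, against a median of 7 over all promoters.

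In cells treated with siRNA against Y14, DHX34 and UPF1 rose and PNRC2 fell in the authors' deposited table, whose DESeq test was called at an adjusted p under 0.05. DHX34, a helicase that promotes the phosphorylation of UPF1, rose by 0.94 on the log2 scale, and UPF1 rose by 0.78. PNRC2, which links UPF1 to decapping, fell by 0.72. These 3 of 9 genes stood beside a background of 9.16% of 17706 genes with reads called in either direction, 3.81% higher and 5.35% lower. The 9 genes were chosen with earlier results of these data known, so this contrast is only a description. The background also holds genes with a mean under 10, whereas DHX34, the lowest of the 9 in siCtrl, had a mean of 1662. SMG1, SMG5, SMG6, UPF2, UPF3A and UPF3B did not pass the DESeq test. The median log2 change of the 9 genes was 0.03, against -0.01 over 11248 genes with a mean of at least 100, with changes on both sides of 0. All these p-values took the 6 libraries as independent. With near-identical libraries counted as 1 sample, limma-voom gave log2 changes of 0.93 for DHX34, 0.77 for UPF1 and -0.74 for PNRC2. That leaves n = 1 for siCtrl, so its own spread cannot be estimated. In bulk RNA, a lower level per cell and fewer cells of a kind cannot be told apart.

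UPF1 is the ATP-dependent helicase at the centre of the pathway. Its gene (ENSG00000005007) lies at chr19:18831938-18868236 on GRCh38, and its main transcript has 24 exons. Normalised counts were 7850 and 8058 in siCtrl libraries a and b, and 11734, 15373, 12029 and 15400 in siY14 libraries a to d. Every siY14 library was above both siCtrl libraries, and b and d were higher than a and c. The mean was 7954 in siCtrl (n = 1) and 13634 ± 2478 (SD, n = 2) in siY14, and the DESeq adjusted p in the authors' deposited table was 0.00346.

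UPF2, UPF3A and UPF3B connect UPF1 with the exon junction complex. UPF2 had 5363 and 5484 normalised counts in siCtrl and 4715, 4340, 4810 and 4217 in siY14. All 4 siY14 values lay below siCtrl, with a log2 change of -0.26 in the authors' deposited table (DESeq adjusted p = 0.384). UPF3A, the paralogue of UPF3B, had 3605 and 3640 in siCtrl and 3644, 3805, 3554 and 3757 in siY14, so the arms overlapped. UPF3B, which is encoded on the X chromosome, had 2163 and 2016 in siCtrl and 2021, 1784, 1872 and 1731 in siY14. Its arms overlapped too, as library a of siY14 lay above library b of siCtrl.

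SMG1 is the kinase that phosphorylates UPF1, and DHX34 promotes that step. SMG1 (chr16:18804853-18926454, 63 exons in its main transcript) had 11696 and 11877 normalised counts in siCtrl and 9035, 8136, 8976 and 8188 in siY14. The arms did not overlap. In the authors' deposited table its log2 change was -0.46 with a DESeq adjusted p of 0.0624, and 0.0476 when those p-values were adjusted over genes with a mean of at least 10. SMG1P1, a pseudogene copy of SMG1 listed on its own, had a mean of 613 in siCtrl and 654 in siY14, and reads of such copies may be shared with SMG1. DHX34 (ENSG00000134815, chr19:47349281-47382704, 17 exons) had 1668 and 1655 in siCtrl and 2782, 3503, 2878 and 3621 in siY14. The arms did not overlap, and again b and d were the higher libraries. The DHX34 mean was 1662 in siCtrl (n = 1) and 3196 ± 518 (SD, n = 2) in siY14, and the DESeq adjusted p in the authors' deposited table was 6.30e-05.

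SMG5 and SMG6 bind phosphorylated UPF1, SMG5 as an adaptor to decay enzymes and SMG6 as the endonuclease that cuts the mRNA. SMG5 had 7813 and 8093 normalised counts in siCtrl and 10599, 11012, 10704 and 11263 in siY14. The siY14 libraries lay close together and above siCtrl, with a log2 change of 0.45 in the authors' deposited table (DESeq adjusted p = 0.0759). SMG6 had 2698 and 2683 in siCtrl and 2859, 3071, 2954 and 3113 in siY14, with a log2 change of 0.16. The SMG6 transcript overlaps HIC1 on the opposite strand by 1780 bases, and whether reads were counted by strand is not given in the sources used here.

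PNRC2 (ENSG00000189266, chr1:23956839-23963462) is a short adaptor whose main transcript has 4 exons. Normalised counts were 17355 and 17262 in siCtrl and 12388, 8644, 12135 and 8904 in siY14. All siY14 libraries lay below siCtrl, and b and d were the lower ones. The mean was 17309 in siCtrl (n = 1) and 10518 ± 2466 (SD, n = 2) in siY14, and the authors' deposited table gave a DESeq adjusted p of 0.00141. For each gene the mean of the siY14 pair b and d was farther from siCtrl than that of the pair a and c, with UPF3A near 0 in both. The share of all genes for which this held was not counted. Medians over the table also lay farther out in b and d. In the 20% of genes lowest and highest in GC content they were -0.33 and 0.44, against -0.18 and 0.24 in a and c. The log2 ratio to siCtrl was 0.58 and 0.95 for UPF1, 0.77 and 1.10 for DHX34, and -0.50 and -0.98 for PNRC2, with a and c first. It was -0.19 and -0.34 for UPF2, -0.39 and -0.53 for SMG1, 0.42 and 0.49 for SMG5, 0.11 and 0.20 for SMG6, -0.10 and -0.25 for UPF3B, and -0.0091 and 0.06 for UPF3A.

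**Figure D1:**
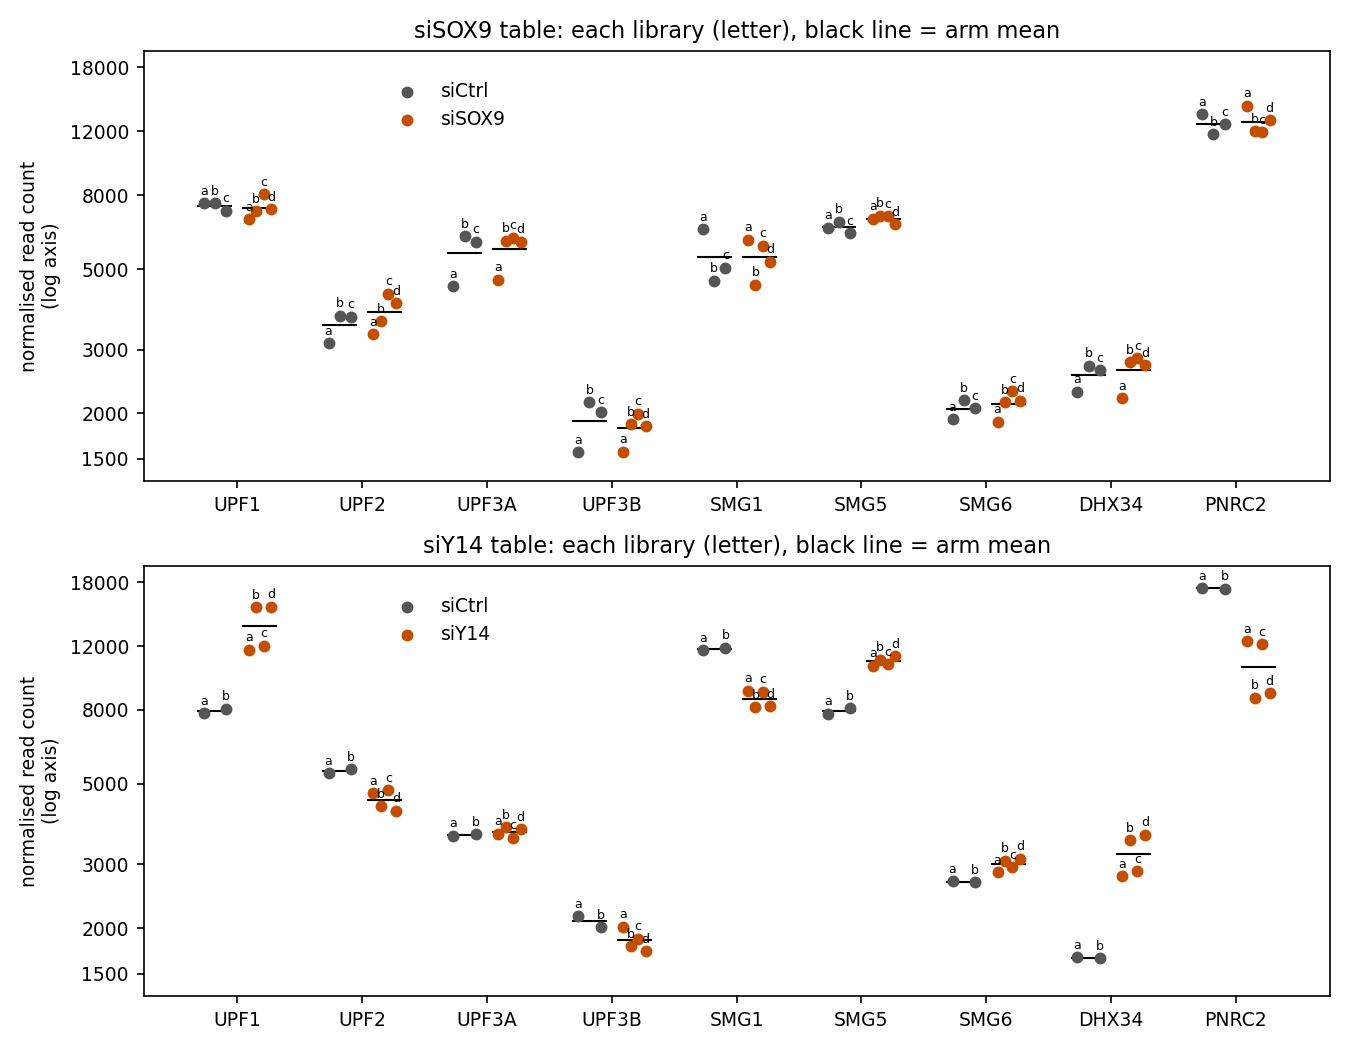
Normalised read count of each gene (log axis) in every recovered library, lettered by depth within an arm, with siCtrl in grey, the treated arm in orange and black lines at arm means. In the siY14 table the arms of UPF1, SMG1, SMG5, DHX34 and PNRC2 are well apart and libraries b and d sit together, whereas in the siSOX9 table the arms of all 9 genes overlap.

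The arms of 7 of the 9 genes did not overlap in the siY14 table, UPF3A and UPF3B being the exceptions. That held for 64.9% of the 12631 genes recovered at a mean of 10 or more, so the count is read against a high background. With every library taken as a sample, limma-voom on the recovered reads called 6 of the 9 genes, namely UPF1, UPF2, SMG1, SMG5, DHX34 and PNRC2, beside 28.4% of all genes tested. With near-identical libraries merged and the spread pooled with the siSOX9 table, DHX34 (adjusted p = 0.0416) and UPF1 (0.0470) passed in limma-voom, beside 2.47% of 12245 genes. In that fit the log2 change of DHX34 was 0.93 with a 95% interval of 0.51 to 1.35, and that of UPF1 was 0.77 with an interval of 0.40 to 1.13. PNRC2 was at -0.74 with an interval of -1.17 to -0.31 and an adjusted p of 0.0629 in limma-voom. Merged with no pooling, which leaves 3 samples, limma-voom called 0 of the 9 genes, with DHX34 at an adjusted p of 0.153 and 3 genes at an unadjusted p under 0.05, beside 0.23% of 12631 genes called. Leaving out either siCtrl library also left 0 of 9 called in limma-voom, with 6 genes (without a) and 5 (without b) at an unadjusted p under 0.05, beside 0.00792% of 12631 genes called.

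**Figure D2:**
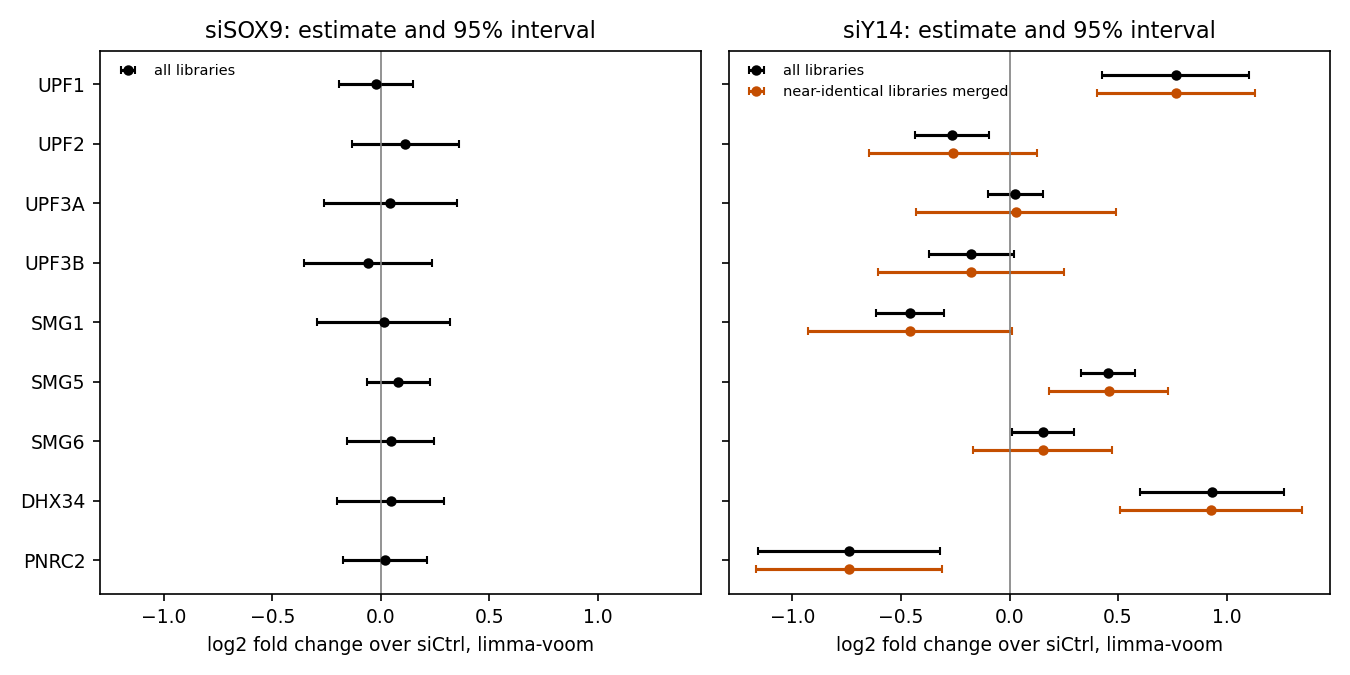
Log2 fold change over siCtrl with its 95% interval from limma-voom, for the siSOX9 table (left) and the siY14 table (right), where black takes each library as a sample and orange merges near-identical libraries and pools the spread with the siSOX9 table. The intervals of UPF1, SMG5, DHX34 and PNRC2 lie off 0 in both siY14 fits, and every siSOX9 interval covers 0.

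The siY14 changes of the 9 genes followed the GC content of their main transcripts. DHX34 (61.5% GC) and UPF1 (60.5%) were the richest in GC and had the largest increases, and PNRC2 (37.4%) was the poorest and had the largest decrease. SMG5 had 57.6%, SMG6 55.3%, UPF3A 48.4%, SMG1 43.2%, UPF3B 41.8% and UPF2 40.3%. Spearman's rho across the 9 genes was 0.95, given as a description because the genes share their libraries. The same order ran through the table as a whole. Across 10563 genes with a mean of at least 100, Pearson's r between GC content and the siY14 log2 change was 0.53, and the median log2 change was -0.27 in the 20% of genes lowest in GC and 0.35 in the 20% highest. It was present in both siY14 pairs, with r of 0.48 for a and c and 0.51 for b and d over 9805 recovered genes. Both pairs were set against the same siCtrl sample, so they are not independent repeats. The r of 0.13 between the siCtrl libraries says little, as those were near-identical and counted as 1 sample. Between distinct siCtrl libraries of the siSOX9 table, the deepest against the others, r was -0.46 over 10416 genes. The siY14 trend was steeper in b and d than in a and c. Medians in the 20% of genes lowest and highest in GC were -0.33 and 0.44 in b and d, and -0.18 and 0.24 in a and c. With a trend on GC content and length removed from each library, limma-voom gave log2 changes of 0.76 for DHX34, 0.64 for UPF1, 0.39 for SMG5, -0.32 for SMG1 and -0.54 for PNRC2, which stayed below an adjusted p of 0.05 with each library as a sample. Those 5 of 9 stood beside 24% of 11630 genes called in that fit. UPF2 moved to -0.07 with an adjusted p of 0.257 in limma-voom. That fit took near-identical libraries as independent, so its p-values carry the same limit as the others. With those libraries merged the log2 change was 0.77 for DHX34, 0.65 for UPF1 and -0.55 for PNRC2, with n = 1 for siCtrl. With 1 distinct siCtrl sample, a difference in library preparation and the knockdown cannot be told apart here.

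**Figure D3:**
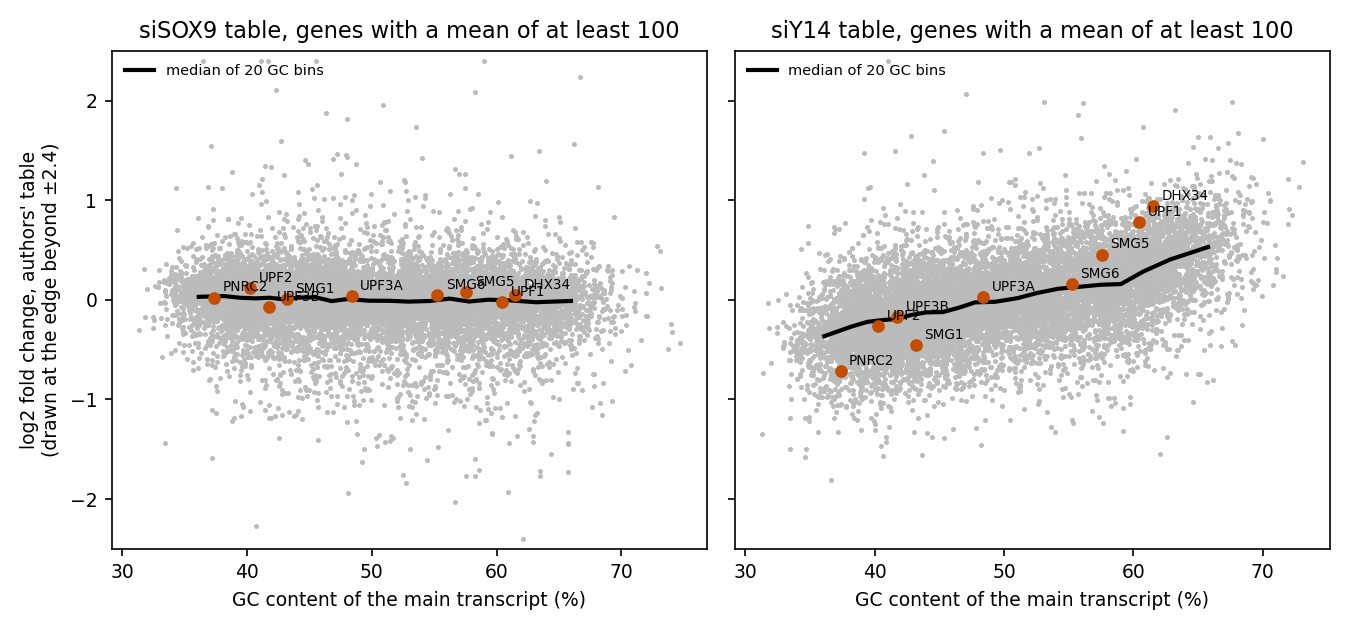
Log2 fold change in the authors' deposited tables against the GC content of the main transcript, for genes with a mean of at least 100 (grey), with the median of GC bins (black line) and the 9 genes in orange. The siY14 line rises with GC content and the 9 genes lie along it, with DHX34, UPF1 and SMG5 above and PNRC2 and SMG1 below, whereas the siSOX9 line is flat.

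In cells treated with siRNA against SOX9, none of the 9 genes was called. The authors' DESeq test gave 0 of 9 at an adjusted p of 0.05 and 0 of 9 at an unadjusted p of 0.05, and limma-voom gave 0 of 9 by both measures. The background was 3.47% of 18747 genes in the authors' deposited table and 15.9% of 13260 genes in limma-voom. Log2 changes ran from -0.07 for UPF3B to 0.11 for UPF2 in the authors' deposited table. The 95% intervals of limma-voom ran from -0.35 at the lowest bound, for UPF3B, to 0.36 at the highest, for UPF2. With depth class as a term the outermost bounds were -0.19 and 0.19, with the GC content and length trend removed -0.48 and 0.44, and without siCtrl library b -0.42 and 0.48.

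UPF1 had 7598, 7596 and 7251 normalised counts in siCtrl libraries a to c and 6858, 7227, 8049 and 7300 in siSOX9 libraries a to d. Its mean was 7482 ± 200 (SD, n = 3) in siCtrl and 7359 ± 499 (SD, n = 4) in siSOX9. DHX34 had 2297, 2707 and 2632 in siCtrl and 2208, 2774, 2841 and 2715 in siSOX9. For DHX34 the deepest library was the lowest of each arm. PNRC2 had 13348, 11762 and 12523 in siCtrl and 14120, 12010, 11914 and 12877 in siSOX9, and there the deepest library was the highest of each arm. SMG1 had 6455, 4645 and 5050 in siCtrl and 6029, 4533, 5808 and 5239 in siSOX9, a spread within arms far above the difference between them. SMG5 had 6506, 6760 and 6279 in siCtrl and 6890, 7017, 7002 and 6639 in siSOX9, with a limma-voom log2 change of 0.08 and a 95% interval of -0.07 to 0.23.

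UPF3A had 4488, 6158 and 5947 in siCtrl and 4671, 5986, 6103 and 5951 in siSOX9. The deepest library was at 0.741 times the mean of the others in siCtrl and 0.777 times in siSOX9. UPF3B had 1567, 2146 and 2020 in siCtrl and 1568, 1869, 1997 and 1848 in siSOX9, and its deepest libraries were likewise at 0.752 and 0.824 times the others. UPF2 ran from 3122 to 3721 in siCtrl and from 3315 to 4275 in siSOX9. SMG6 ran from 1930 to 2176 and from 1896 to 2303. The arms of 0 of the 9 genes were free of overlap, against 27.6% of all 13260 genes. Without the deepest library of each arm limma-voom called 0 of the 9 genes, beside 33.3% of 13260 genes. With depth class as a term it also called 0 of 9, beside 50%, and in both fits 0 of 9 had an unadjusted p under 0.05. Between the deepest siCtrl library and the other siCtrl libraries the log2 ratio had an r of -0.46 with GC content over 10416 genes, and its part in the spread was not tested.

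The difference between the knockdowns was tested in 1 limma-voom model of both tables, each against its own siCtrl. Of the 9 genes, 4 passed with every library as a sample, beside 23.4% of 12245 genes. The siY14 change exceeded the siSOX9 change by 0.89 on the log2 scale for DHX34 (adjusted p = 0.00414 in limma-voom), by 0.79 for UPF1 (0.00333) and by 0.37 for SMG5 (0.0123). For PNRC2 the difference was -0.76 (adjusted p = 0.0126 in limma-voom). With near-identical libraries merged, DHX34 (0.0475) and UPF1 (0.0416) passed in limma-voom, and PNRC2 (0.0754) and SMG5 (0.149) did not, beside 5.55% of 12245 genes. The experiments differ between the tables, so an effect of the experiment on these differences cannot be told apart.

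Levels between the genes were compared per kilobase of main transcript in siCtrl. In the siY14 table PNRC2 was highest at 7129 normalised counts per kb, followed by SMG5 at 1745, UPF3A at 1517, UPF1 at 1487, UPF2 at 974, UPF3B at 879, SMG1 at 731, SMG6 at 451 and DHX34 at 380.1. In the siSOX9 table PNRC2 was again highest at 5167 per kb, and SMG1 (334) and SMG6 (345) were lowest. With 1 distinct siCtrl sample in the siY14 table, the order of the neighbours UPF3A and UPF1 could not be tested there.

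The genes nearest to each called member in the pair of log2 changes (siSOX9, siY14) were found among 11069 genes with a mean of at least 100 in both tables. For UPF1 they were TRPM2 (0.79 in siY14), TOLLIP (0.78) and C1orf35 (0.76). For DHX34 they were GAS2L1 (0.95), CHERP (0.92) and CAPN10-AS1 (0.92). For PNRC2 they were TPP2 (-0.72), CSE1L (-0.72) and IPO11 (-0.72). Likeness was the distance between 2 log2 values per gene and covers 2 comparisons only.

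Other genes of RNA surveillance were counted by list in the authors' deposited tables at a DESeq adjusted p of 0.05. Among 10 further decay factors, 2 rose and 0 fell with siY14, and the list had a median log2 change of -0.10 against -0.00126 over 13443 genes with a mean of at least 10. The 2 were SMG8, a subunit of the SMG1 kinase complex (log2 change 0.52, adjusted p = 0.0419), and RUVBL2, an ATPase that assembles large complexes (0.52, 0.0392). Among 18 RNA decay enzymes 0 rose and 2 fell, with a median of -0.11. They were XRN1, the cytoplasmic 5′ to 3′ exonuclease, at -0.82 (adjusted p = 0.000285), and PAN2, a poly(A) nuclease, at -0.68 (0.00504). XRN1 had a mean of 3425 in siCtrl and 1941 in siY14.

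Among 9 measured exon junction complex genes 0 were called with siY14 by the DESeq test, and their log2 changes ran from -0.09 for CASC3 to 0.29. EIF4A3, the core helicase of that complex, was at 0.17. Among 9 genes of termination, the poly(A) tail and the cap, 0 rose and 1 fell, NCBP1 of the cap-binding complex at -0.68 (DESeq adjusted p = 0.0436). With siSOX9, 1 gene of these 4 lists was called among 46 measured, NCBP2 at -0.68 (DESeq adjusted p = 0.00837), and 5 of 46 were called with siY14. Those shares, 2.17% and 10.9%, lay near the backgrounds of 3.47% and 9.16% of all genes.

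Transcripts known as substrates of the pathway were counted in the same way. With siY14, 3 of 27 rose and 1 fell, with a median log2 change of 0.13 in the authors' deposited table, beside 3.81% of all genes higher and 5.35% lower. The small nucleolar RNA hosts ZFAS1 (9821 in siCtrl and 35537 in siY14, log2 change 1.86, DESeq adjusted p = 0.0451) and SNHG15 (2097 and 5940, 1.50, 0.00528) had the largest called increases. SNHG15 had 4608 in the siY14 pair a and c and 7273 in b and d, so here too b and d were farther from siCtrl. That did not hold for every substrate, as UPP1 had 1853 in a and c and 1690 in b and d, against 1382 in siCtrl. The libraries of ZFAS1, SNHG5 and GAS5 were not recovered in the siY14 table. NAT9 rose by 0.64 (DESeq adjusted p = 0.0318). ATF3, a stress-response transcription factor, fell by 0.61 (0.00915). SNHG5 (2.06, DESeq adjusted p = 0.0868) and GAS5 (1.18, 0.165) did not pass the test. GADD45A, often used as a reporter of the pathway, was at 0.04. With siSOX9, 1 of 27 rose and 0 fell, GABARAPL1 at 0.65 (DESeq adjusted p = 0.0120), beside 3.47% of all genes called in either direction.

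**Figure D4:**
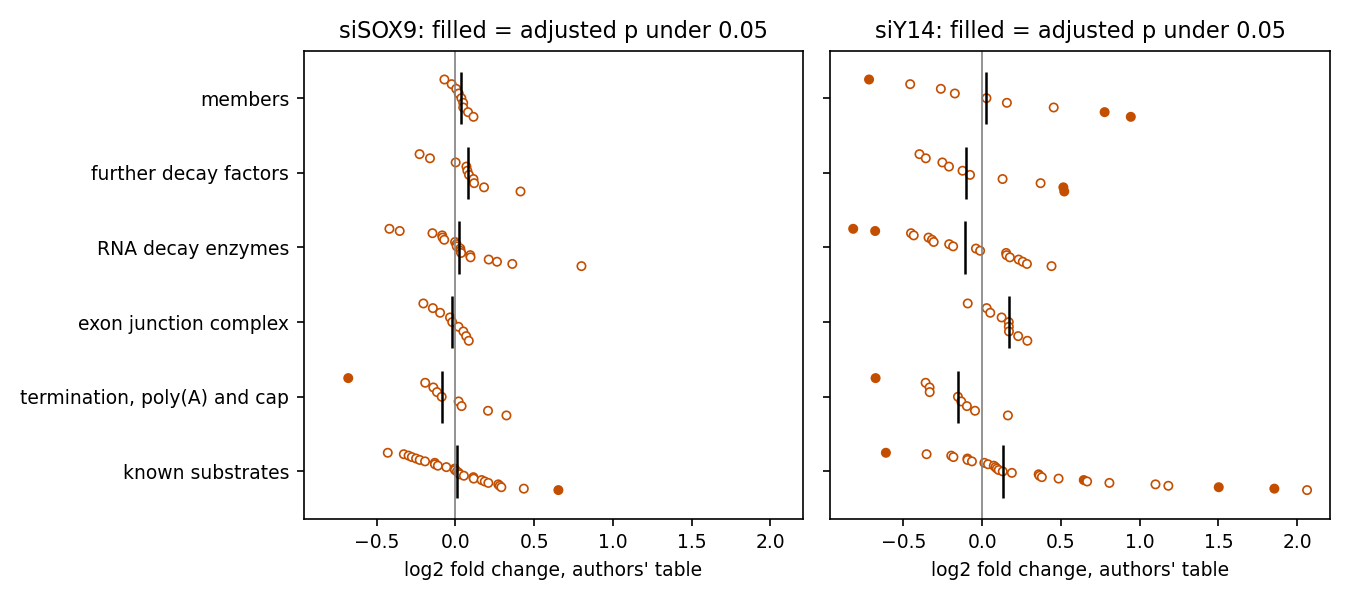
Log2 fold change in the authors' deposited tables for the 9 genes (members) and each list of related genes, 1 point a gene, filled where the adjusted p was under 0.05, with a black line at the median. With siY14 the 9 genes spread to both sides of 0 and the highest points are substrates, whereas with siSOX9 the 9 genes cluster near 0.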

How the data were processed

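The members and lists were chosen with earlier results of these data known. Per the labels' protocols, stranded libraries were made from polyadenylated RNA. The tools named in the submitters' processing notes are HISAT2, TopHat2 with Bowtie, SAMtools, HTSeq and DESeq, on hg19, and versions and settings are not given in the sources used here. Per the file headers, the authors deposited mean normalised counts per arm (a signal: reads over size factors), a fold ratio and the log2 of it, and p-values before and after adjustment. There were 0 unused columns of per-sample values.

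Arm means are printed to enough digits to recover the whole reads of each library. Sets of whole reads within 50% of equal normalised counts were kept where they gave both means and, through a rebuilt DESeq test, the authors' printed p. In this way 97.8% of detected genes were recovered for siSOX9 and 95.3% for siY14. Genes that spread more than that window are missed. Checked on simulated data, 1239 of 1500 genes per table were recovered with 0 wrong, and 0 of 1500 shifted means were accepted.

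The voom method of limma 3.58.1 (R 4.3.3) tested recovered genes whose mean reached 10, scaled by the authors' size factors, with p-values adjusted by Benjamini-Hochberg. Tested on simulated independent libraries, 99 of 108 genes changed 2-fold were recovered for siY14 (12631 genes) and 107 of 109 for siSOX9 (13260 genes). The siY14 libraries formed near-identical pairs (chi-square per gene under 1.2), and fits that merge them, remove GC and length trends or use depth class were added after seeing the data. The main design takes the authors' DESeq calls at an adjusted p of 0.05.

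Named genes were all 9 members, up to 4 called genes per list and comparison, and the 3 genes nearest to each called member. SNHG5, GAS5, GADD45A, UPP1, EIF4A3 and CASC3 were chosen after their values were seen. Transcript features come from the main transcript in GENCODE on GRCh38 (the APPRIS principal one, the longest where several tie), matched for 93.9% of siY14 genes with a mean of at least 100, promoters from RefSeq on GRCh38.p14, and no coordinates were converted from hg19. PYM1 is listed as WIBG.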

Additional observations from a re-analysis of the deposited data

Results flagged for a closer look

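In a group of 4 libraries, UPF3A in siSOX9 library a (4671 normalised counts) lay apart from the other 3 (5951 to 6103), with a gap to the nearest that was 0.894 of the range. Of 9 such groups 1 was singled out, where chance gives about 1 in 20 for each group. The 9 groups are genes in the same 4 libraries, so they are not independent. UPF3A in the deepest siCtrl library was also the lowest of its arm, at 4488.

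The siY14 change differed from the siSOX9 change in the joint limma-voom model by 0.89 for DHX34, 0.79 for UPF1, 0.37 for SMG5 and -0.76 for PNRC2 on the log2 scale, and the model called 23.4% of all genes. With near-identical libraries merged, DHX34 and UPF1 passed an adjusted p of 0.05, and SMG5 and PNRC2 did not, beside 5.55% of all genes. GC content moves with these values in the siY14 table, and its part in them was not tested in the joint model.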

How the results depend on the processing

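In the siY14 table the authors' test called 3 of the 9 genes, beside 9.16% of all genes. Limma-voom with each library as a sample called 6, beside 28.4%. Adjustment over genes with a mean of at least 10 or 100 called 4, SMG1 being the addition. Leaving out 1 siY14 library at a time, limma-voom called from 4 to 6. The share of all genes was not counted for these re-adjusted and leave-out settings. Leaving out siCtrl a or siCtrl b leaves 1 siCtrl library. The log2 change was then 0.94 or 0.93 for DHX34, 0.75 or 0.78 for UPF1 and -0.73 or -0.74 for PNRC2. The lone siCtrl library is then assumed to vary like the siY14 arm. Merging near-identical libraries also leaves 1 siCtrl sample, and the log2 change was 0.93 for DHX34, 0.77 for UPF1 and -0.74 for PNRC2. With the GC content and length trend removed as well, these values were 0.77, 0.65 and -0.55. With the spread pooled with the siSOX9 table they were 0.93, 0.77 and -0.74. The joint model gave 4 genes with all libraries (23.4% of all genes) and 2 with near-identical libraries merged (5.55%). Fewer samples enter the merged fits by construction. The siY14 log2 change of each gene kept its direction in every setting run, from 0.76 to 1.00 for DHX34, 0.64 to 0.84 for UPF1 and -0.83 to -0.54 for PNRC2.

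For siSOX9, 0 of 9 genes were called in every setting run. Signs near 0 turned in 17 of 154 alternative values, none of them called, and the cause was not tested. With the GC content and length trend removed UPF1 was at 0.0333 and PNRC2 at -0.0313. Without the deepest library of each arm UPF1 was at 0.0165 and UPF3A at -0.0102. Centred on the median of genes, SMG1 was at -0.00173. Leaving out 1 library at a time gave ranges of -0.0686 to 0.00752 for UPF1, -0.0972 to 0.132 for UPF3A and -0.210 to 0.0400 for UPF3B. The range was -0.0868 to 0.148 for SMG1, -0.00528 to 0.106 for SMG6, -0.0305 to 0.134 for DHX34 and -0.0305 to 0.0642 for PNRC2.

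No paired analysis was possible because the recovered libraries carry no replicate number. The depth class fitted for siSOX9 groups libraries by depth and does not match replicates. It puts 1 library of each arm in the deep class, and 2 siCtrl and 3 siSOX9 libraries in the other. Experiments 2 and 1 have that same make-up, with 1 sample of each arm in experiment 2. Whether the deep class is experiment 2 cannot be read from unnamed libraries.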
